A study of Mus musculus with 12 samples.

Results

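The genes described here encode the proteins that neutrophils pack into their secondary (specific) and tertiary (gelatinase) granules: Ngp, Camp, Ltf, Lcn2, Mmp8, Mmp9, Hp and Chi3l3. They were chosen by name, as every probe set that the array annotation gives to one of these symbols. The 8 genes had 9 probe sets among the 45101 on the array, and Mmp9 had 2. In all, 8 probe sets, 1 for each gene, passed the filter on dim values, and the 8 genes stand among 19990 features tested. Chi3l3 is listed under its current symbol, Chil3. One more probe set, which is shared with the near-identical gene Chil4, was not counted as a member.

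The 12 arrays measured RNA from sorted cells of mouse bone marrow cultures. All cultures, control included, came from marrow of (C57Bl/6Ly-Pep3b x C3H/HeJ) F1 mice exposed to 5-fluorouracil and carried a retrovirus for NUP98-HOXD13, a leukaemia fusion of a nucleoporin with a homeobox protein. They were grown for 4 weeks with human IL-6, mouse IL-3 and mouse stem cell factor, and the sources give no age for the mice. Each culture then received a second retrovirus. In 3 arrays it carried M33-MEIS1, in 3 MEIS1-deltaHD (MEIS1 with its DNA-binding homeodomain deleted), in 3 MEIS1-WT (full length), and in 3 the control vector MIY, which encodes only yellow fluorescent protein. M33 is an older name of the Polycomb protein Cbx2, and the labels do not describe the M33-MEIS1 construct further. MEIS1 is a homeobox transcription factor that works with HOX proteins. All genes were expressed from retroviruses, and the cells are cultures driven by a fusion gene and cytokines rather than marrow itself. The design text speaks of independent experiments for each condition. Whether they began from separate animals is not stated, so the p-values measure the spread between these arrays.

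Neutrophil granules are made in waves as a precursor matures. Primary (azurophil) granules with myeloperoxidase and serine proteases form at the promyelocyte stage. Secondary granules with lactoferrin, lipocalin 2 and the cathelicidin follow at the myelocyte stage, tertiary granules with gelatinase form after them, and the factor C/EBP-epsilon is known to be needed for the secondary wave. In bulk RNA, fewer cells of a type and less RNA per cell cannot be told apart.

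The promoters below are those of the genes with the clearest differences between groups. They are RefSeq sequences of build GRCm38.p6, from 250 bases before to 50 after the annotated gene start, 5' to 3' on the strand of the gene. The Ngp window is chr9:110419558-110419857 (plus strand), that of Mmp8 is chr9:7558179-7558478 (plus), that of Lcn2 is chr2:32387690-32387989 (minus) and that of Chi3l3 is chr3:106167515-106167814 (minus). Capitals mark matches on either strand to 3 short motifs: TTNNGCAA (C/EBP-type), GAGGAA (PU.1-type) and TGACAG (MEIS-type). No match overlapped a match to another motif.
Ngp: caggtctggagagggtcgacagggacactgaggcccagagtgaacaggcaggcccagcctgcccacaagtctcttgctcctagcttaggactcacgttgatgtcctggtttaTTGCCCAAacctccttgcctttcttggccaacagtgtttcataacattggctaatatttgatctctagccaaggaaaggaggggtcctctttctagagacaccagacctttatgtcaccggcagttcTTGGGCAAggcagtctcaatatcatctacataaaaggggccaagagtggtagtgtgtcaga
Mmp8: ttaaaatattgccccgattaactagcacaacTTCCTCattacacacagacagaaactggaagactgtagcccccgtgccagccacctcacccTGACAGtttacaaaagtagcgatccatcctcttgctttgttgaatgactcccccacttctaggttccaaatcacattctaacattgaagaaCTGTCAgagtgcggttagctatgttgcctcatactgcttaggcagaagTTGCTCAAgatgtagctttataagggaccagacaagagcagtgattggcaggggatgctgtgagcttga
Lcn2: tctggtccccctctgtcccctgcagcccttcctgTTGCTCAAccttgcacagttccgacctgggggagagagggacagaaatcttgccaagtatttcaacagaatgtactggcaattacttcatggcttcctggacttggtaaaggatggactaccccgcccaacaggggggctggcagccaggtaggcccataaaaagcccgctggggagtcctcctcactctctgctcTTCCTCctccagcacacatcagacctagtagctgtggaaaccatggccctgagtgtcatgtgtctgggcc
Chil3: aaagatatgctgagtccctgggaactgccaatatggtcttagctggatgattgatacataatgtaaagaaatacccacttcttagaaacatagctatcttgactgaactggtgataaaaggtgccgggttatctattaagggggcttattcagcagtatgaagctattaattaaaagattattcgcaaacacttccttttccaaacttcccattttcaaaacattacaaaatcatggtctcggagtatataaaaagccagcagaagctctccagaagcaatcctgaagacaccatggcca

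Of the 8 genes, 6 had a promoter in the RefSeq table. The C/EBP-type motif was found in 4 of the 6 promoters (Ngp with 2 matches, and Ltf, Lcn2 and Mmp8), against 10.8% of all 32851 promoters of this length. The Ngp matches began 138 and 11 bases before the start, and that of Mmp8 19 bases before it. The PU.1-type motif was found in 3 of the 6 (Ltf, Lcn2 and Mmp8), against 28.3% of all promoters. The MEIS-type motif was found in 1, Mmp8, with 2 matches, against 19.2% of all promoters. The Camp and Chi3l3 windows held no match to the 3 motifs. These matches describe letters in a window and show no binding. By the order of genes in RefSeq, Camp, Ngp and Ltf lie near each other on chromosome 9, with 8 protein-coding genes between Camp and Ngp and 20 between Ngp and Ltf.

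The signals are linear intensities that the authors scaled to a common mean on each array. The median over all probe sets lay between 13.1 and 21.6 per array and was highest in control. Tests were made on log2(signal + 16) with limma over all features, and a gene passed at a Benjamini-Hochberg adjusted p below 0.05. Because of the added 16, a log2 difference understates the change of a dim gene. Relative to control, the median of all features was -0.128 with M33-MEIS1, -0.17 with MEIS1-deltaHD and -0.125 with MEIS1-WT on the log2 scale. Median scaling, which sets the array medians equal, moved these medians up by 0.186, 0.255 and 0.19. It turned the share of all calls that were higher to 69.9%, 70.7% and 67.5%, from 40.3%, 37.8% and 40.7% under the authors' scaling, so a difference from control of that size depends on the scaling. Quantile normalization moved the medians by 0.118, 0.156 and 0.127 and gave 50.6%, 49.5% and 50.9%.

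A pair of patterns was seen among the 5 members with clear signal. Mmp8, Lcn2, Hp and Chi3l3 were lowest with MEIS1-WT and at or near their highest in control. Ngp was highest with M33-MEIS1 and MEIS1-deltaHD, and also lowest with MEIS1-WT. Camp was dim with values in the same order as Ngp, and Ltf and Mmp9 were near the lower limit of the arrays in every group.

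**Figure D1:**
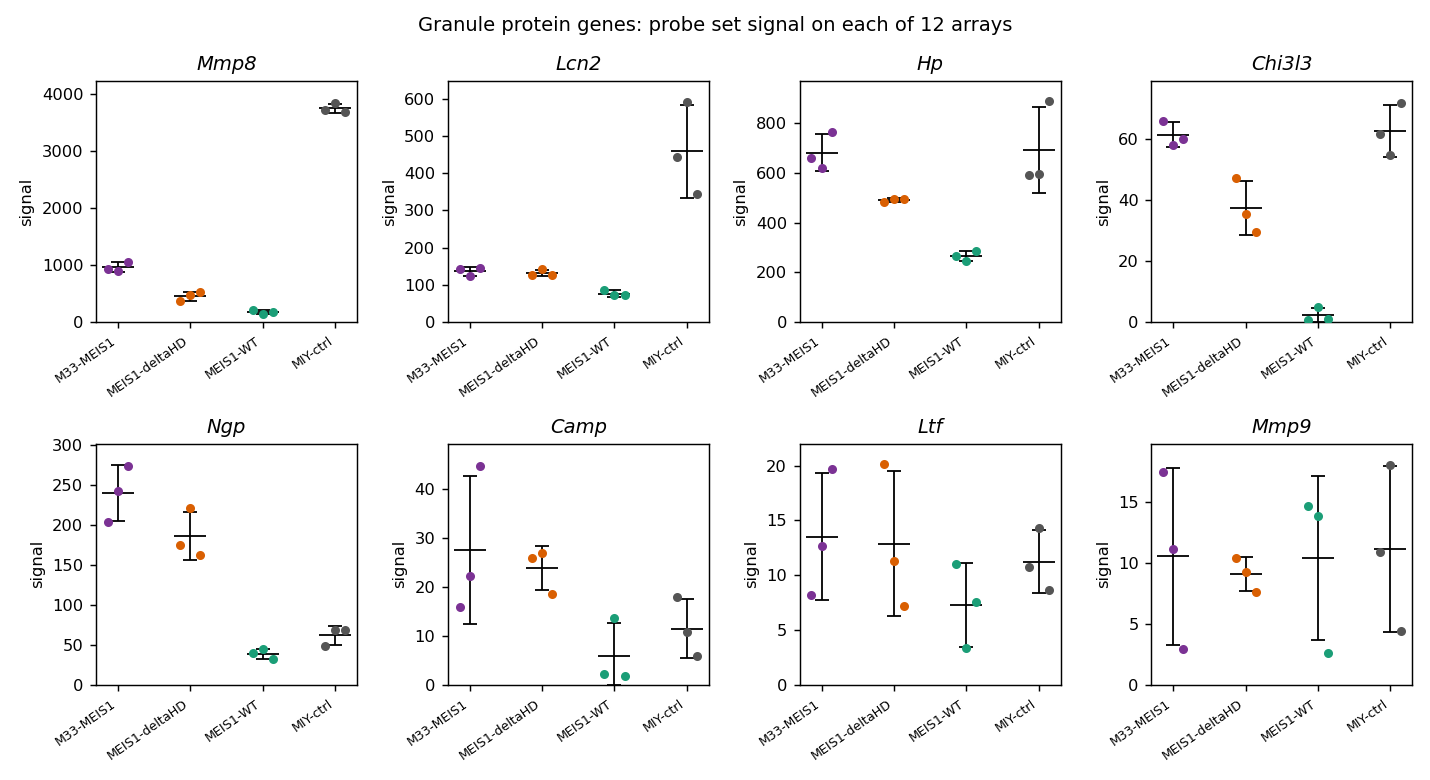
Signal of the probe set used for each granule gene (y axis, linear array intensity from 0) on the 3 arrays of each group (x axis); points are arrays, the horizontal mark is the mean and bars are 1 SD, clipped at 0. Mmp8 lies between 3680 and 3840 in control and below 1100 with every construct, and Ngp lies between 163 and 274 with M33-MEIS1 and MEIS1-deltaHD and below 70 in the other groups.

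Mmp8, neutrophil collagenase, is a metalloproteinase of secondary granules that cleaves fibrillar collagen. Its signal was 936, 890 and 1060 with M33-MEIS1, 371, 469 and 526 with MEIS1-deltaHD, and 219, 142 and 180 with MEIS1-WT, against 3720, 3840 and 3680 in control. All 4 groups were separate, with every array of one group beyond every array of the next. The mean ratio to control was 0.257 with M33-MEIS1, 0.122 with MEIS1-deltaHD and 0.0481 with MEIS1-WT. Log2 differences from control were -1.95 ± 0.117 (SE, adjusted p = 7.41e-12), -3.01 ± 0.117 (adjusted p = 2.19e-15) and -4.28 ± 0.117 (adjusted p = 1.15e-18). The constructs also differed from each other: Mmp8 was higher by 1.06 with M33-MEIS1 than with MEIS1-deltaHD (adjusted p = 7.59e-06) and higher by 1.27 with MEIS1-deltaHD than with MEIS1-WT (adjusted p = 5.06e-08). Among the 19990 features, Mmp8 had the 27th largest absolute difference between MEIS1-WT and control.

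Mmp9, gelatinase B, is the proteinase for which gelatinase granules are named. Its brighter probe set read 17.5, 11.2 and 2.95 with M33-MEIS1, 10.4, 9.25 and 7.59 with MEIS1-deltaHD, and 14.7, 13.9 and 2.63 with MEIS1-WT, against 10.9, 18.1 and 4.44 in control. The groups overlapped throughout, and the 6 log2 differences lay between -0.08 and 0.04 with adjusted p between 0.828 and 0.994. With MEIS1-WT against control the interval of the difference was -0.57 to 0.48, so only larger changes could have been seen. The other Mmp9 probe set, which failed the filter, read at most 14.9, on 1 control array.

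Lcn2, lipocalin 2 (neutrophil gelatinase-associated lipocalin), captures bacterial iron chelators. Its signal was 142, 123 and 144 with M33-MEIS1, 127, 142 and 126 with MEIS1-deltaHD, and 86.3, 71.7 and 71.6 with MEIS1-WT, against 444, 591 and 343 in control. Every construct array lay below every control array, and MEIS1-WT lay below the other constructs. Lcn2 fell by 1.61 ± 0.136 with M33-MEIS1 (adjusted p = 2.3e-09), by 1.65 ± 0.136 with MEIS1-deltaHD (adjusted p = 1.03e-09) and by 2.33 ± 0.136 with MEIS1-WT (adjusted p = 1.91e-12) relative to control, on the log2 scale. It was higher by 0.72 with M33-MEIS1 than with MEIS1-WT (adjusted p = 8.93e-04) and by 0.68 with MEIS1-deltaHD than with MEIS1-WT (adjusted p = 2.17e-03). M33-MEIS1 and MEIS1-deltaHD overlapped, with a difference of 0.04 and an interval of -0.24 to 0.32.

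Ltf, lactoferrin, an iron-binding protein and the classical marker of secondary granules, was dim. It read 8.15, 12.7 and 19.7 with M33-MEIS1, 20.1, 11.3 and 7.17 with MEIS1-deltaHD, and 11, 3.31 and 7.53 with MEIS1-WT, against 10.7, 14.3 and 8.65 in control. All groups overlapped and no comparison passed. The largest difference was 0.34 between M33-MEIS1 and MEIS1-WT, with an interval of -0.13 to 0.80.

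Hp, haptoglobin, binds free haemoglobin and is stored in neutrophil granules as well as made by the liver. Its signal was 660, 620 and 763 with M33-MEIS1, 483, 493 and 496 with MEIS1-deltaHD, and 265, 247 and 284 with MEIS1-WT, against 590, 596 and 891 in control. M33-MEIS1 overlapped with control, while MEIS1-deltaHD and MEIS1-WT each lay below it. Against control, Hp fell by 0.46 ± 0.115 with MEIS1-deltaHD (adjusted p = 2.77e-03) and by 1.31 ± 0.115 with MEIS1-WT (adjusted p = 2.5e-09). The MEIS1-deltaHD call was lost after median scaling (-0.20, adjusted p = 0.265). M33-MEIS1 differed from control by 0.00, with an interval of -0.24 to 0.24. Hp was higher by 1.31 with M33-MEIS1 than with MEIS1-WT (adjusted p = 1.41e-08) and by 0.85 with MEIS1-deltaHD than with MEIS1-WT (adjusted p = 1.86e-05). All M33-MEIS1 arrays lay above all MEIS1-deltaHD arrays, but the difference of 0.45 gave adjusted p = 0.0699. It passed when only those 6 arrays were fitted (adjusted p = 3.8e-03), without control replicate 2 (adjusted p = 0.0361) and without control replicate 3 (adjusted p = 4.97e-03).

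Chi3l3 (Chil3, also Ym1) is a chitinase-like lectin found in mouse neutrophil granules and also made by macrophages. It read 65.8, 58.0 and 60.0 with M33-MEIS1, 47.1, 35.3 and 29.6 with MEIS1-deltaHD, and 0.772, 4.83 and 0.957 with MEIS1-WT, against 61.5, 54.6 and 71.5 in control. The MEIS1-WT arrays were at the bottom of the array's range, far below all the others, so the size of the fall rests on the added 16. Chi3l3 fell by 2.11 ± 0.17 with MEIS1-WT relative to control (adjusted p = 5.37e-10), and by 0.93 to 3.48 over the alternatives tried. With MEIS1-deltaHD it fell by 0.57 ± 0.17 (adjusted p = 0.0106), a call lost after quantile normalization (-0.36, adjusted p = 0.122), after median scaling (-0.31, adjusted p = 0.203), without MEIS1-deltaHD replicate 3 (-0.46, adjusted p = 0.0679) or without control replicate 3 (-0.48, adjusted p = 0.055). With M33-MEIS1 it overlapped with control (-0.02, interval -0.37 to 0.33). It was higher than with MEIS1-WT by 2.09 with M33-MEIS1 (adjusted p = 3.34e-09) and by 1.55 with MEIS1-deltaHD (adjusted p = 8.48e-07). These sizes also rest on the added 16, and over the alternatives they ran from 0.92 to 3.46 with M33-MEIS1 and from 0.61 to 2.78 with MEIS1-deltaHD, with both calls kept.

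The probe set shared by Chil3 and Chil4 followed the same order. It read 47.8, 51.3 and 61.7 with M33-MEIS1, 48.5, 47.4 and 29.6 with MEIS1-deltaHD, and 12.7, 4.78 and 12.1 with MEIS1-WT, against 66.7, 68.3 and 72.4 in control. The probe set given to Chil4 alone was dim, at 1.26 to 13.7 over the 12 arrays, and did not pass in any comparison.

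Ngp, neutrophilic granule protein, is a small secondary granule protein related to cystatins and cathelicidins. Its signal was 204, 243 and 274 with M33-MEIS1, 175, 221 and 163 with MEIS1-deltaHD, and 39.2, 45.0 and 31.9 with MEIS1-WT, against 48.6, 68.1 and 68.4 in control. M33-MEIS1 and MEIS1-deltaHD overlapped with each other and lay above every other array, and every MEIS1-WT array lay below control. Ngp rose by 1.72 ± 0.142 with M33-MEIS1 (adjusted p = 1.44e-09) and by 1.38 ± 0.142 with MEIS1-deltaHD (adjusted p = 3.62e-08) relative to control. With MEIS1-WT it fell by 0.50 ± 0.142 (adjusted p = 7.58e-03), a call lost after quantile normalization (-0.32, adjusted p = 0.106) and median scaling (-0.31, adjusted p = 0.104).

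The difference between constructs was the largest one of Ngp. It was higher by 2.23 with M33-MEIS1 than with MEIS1-WT (adjusted p = 4.47e-11), a ratio of mean signals of 6.21. It was higher by 1.88 with MEIS1-deltaHD than with MEIS1-WT (adjusted p = 1.71e-09), a ratio of 4.82. Between M33-MEIS1 and MEIS1-deltaHD the difference of 0.34 did not pass (adjusted p = 0.378, interval 0.05 to 0.63 before adjustment).

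Camp, the precursor of the mouse cathelicidin antimicrobial peptide CRAMP, was dim. It read 15.8, 22.1 and 44.6 with M33-MEIS1, 25.9, 26.9 and 18.6 with MEIS1-deltaHD, and 2.17, 13.6 and 1.88 with MEIS1-WT, against 17.8, 10.8 and 5.77 in control. All MEIS1-WT arrays lay below all M33-MEIS1 and MEIS1-deltaHD arrays, whereas control overlapped with M33-MEIS1 and with MEIS1-WT. Camp was higher by 0.98 ± 0.25 with M33-MEIS1 than with MEIS1-WT (adjusted p = 0.0152) and by 0.90 ± 0.25 with MEIS1-deltaHD than with MEIS1-WT (adjusted p = 0.0332). The first call was lost without M33-MEIS1 replicate 3 (0.71, adjusted p = 0.141), MEIS1-WT replicate 1 (0.86, adjusted p = 0.0811) or MEIS1-WT replicate 3 (0.85, adjusted p = 0.0812) and without the intensity trend (adjusted p = 0.0613). The second was lost in 7 of 21 alternatives, among them no filter on dim probe sets (adjusted p = 0.0887) and the removal of MEIS1-deltaHD replicate 1 or 2 or MEIS1-WT replicate 1 or 3 (adjusted p between 0.135 and 0.152). Against control, Camp differed by 0.63 with M33-MEIS1 (adjusted p = 0.0582) and by 0.55 with MEIS1-deltaHD (adjusted p = 0.0876). Under median scaling the same comparisons passed, at 0.82 (adjusted p = 0.0112) and 0.81 (adjusted p = 9.88e-03).

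**Figure D2:**
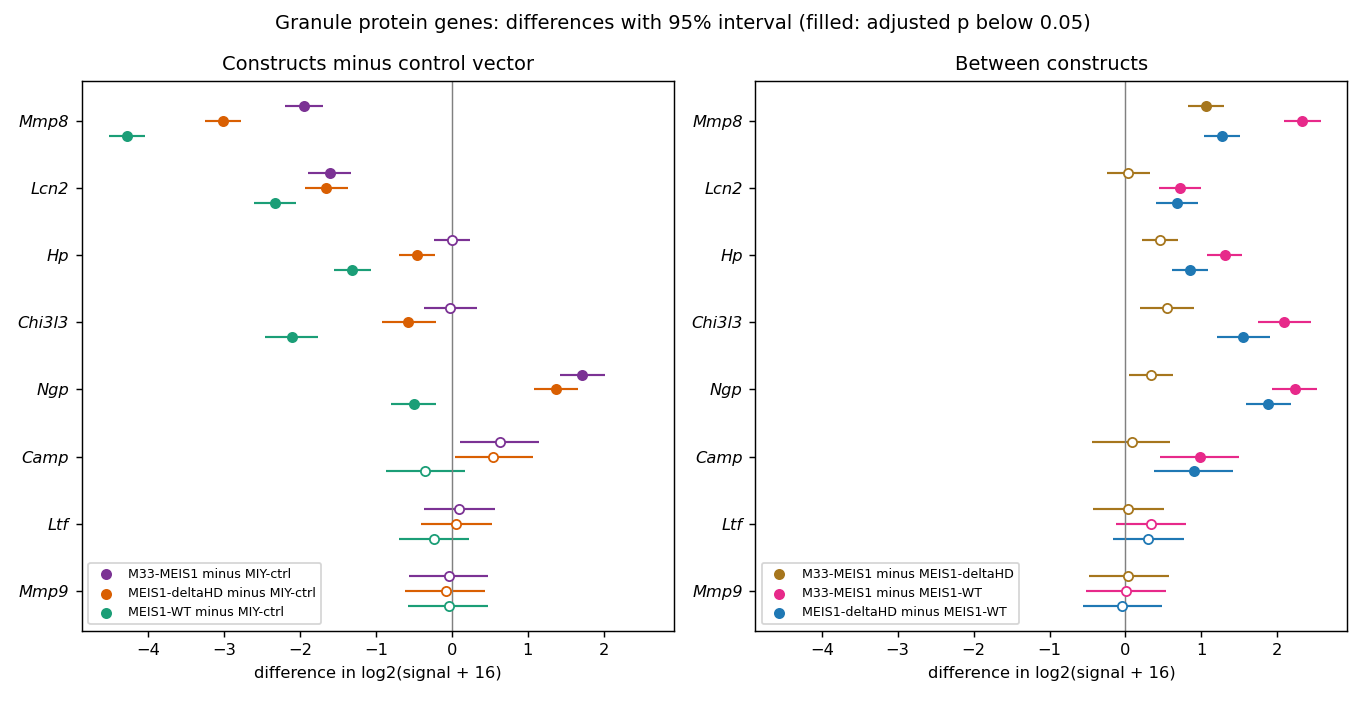
Difference in log2(signal + 16) of each granule gene (y axis) with its 95% interval from the limma fit, for the constructs minus control (left panel) and between constructs (right panel); filled points passed at an adjusted p below 0.05. Mmp8 and Lcn2 lie below 0 for all 3 constructs, Ngp lies above 0 for M33-MEIS1 and MEIS1-deltaHD, and 6 genes lie above 0 in both comparisons with MEIS1-WT.

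Counted over the 8 genes, the comparison of M33-MEIS1 with control, which asks what the M33 form adds to NUP98-HOXD13 cells, had 1 higher (Ngp) and 2 lower (Mmp8 and Lcn2), where 12.4% of all features were higher and 18.3% lower. The median of the 8 log2 differences was -0.01. MEIS1-deltaHD against control, which asks what is left without the homeodomain, had 1 higher (Ngp) and 4 lower (Mmp8, Lcn2, Hp and Chi3l3), against 13.8% and 22.8% of all features. Its median was -0.27. MEIS1-WT against control had 0 higher and 5 lower, against 13.4% and 19.5% of all features, with a median of -0.91. These comparisons share the 3 control arrays, so their values are given side by side and are not independent of each other.

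The comparisons between constructs do not use the levels of the control arrays. M33-MEIS1 against MEIS1-WT had 6 of 8 genes higher and 0 lower, where 4.12% of all features were higher and 2.37% lower. MEIS1-deltaHD against MEIS1-WT, where the constructs differ by the homeodomain, also had 6 higher and 0 lower, against 2.84% and 2.42% of all features. The genes were Ngp, Camp, Lcn2, Mmp8, Hp and Chi3l3 in both, and the list medians were 1.14 and 0.88, with the median of all features at -0.00155 and -0.0269. These comparisons share the MEIS1-WT arrays. M33-MEIS1 against MEIS1-deltaHD had 1 higher (Mmp8) and 0 lower, against 0.67% and 0.04% of all features, with a list median of 0.21.

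The genes did not vary together as 1 block over the 12 arrays. On the log2(signal + 16) scale, Pearson's r was 0.954 between Hp and Chi3l3, 0.944 between Lcn2 and Mmp8 and 0.825 between Ngp and Camp. It was 0.108 between Ngp and Mmp8 and -0.0708 between Ngp and Lcn2. These values describe 12 arrays in 4 groups, which share their group differences.

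The genes most like each member, by Pearson's r over the same 12 arrays follow. For Ngp they were B4galt6 (0.976), Lipg (0.961) and S100a9 (0.956), a calcium-binding protein of neutrophils. For Mmp8 they were the protease cathepsin S (Ctss, 0.995), Cd52 (0.994) and the galectin Lgals3 (0.993), and for Lcn2 they were Gpnmb (0.978), Slamf9 (0.977) and Irak2 (0.976). For Hp they were Gpr183 (0.982), Lst1 (0.968) and Atp8b4 (0.965), and for Chi3l3 Sting1 (0.975), Atp8b4 (0.973) and Sorl1 (0.973). For the dim members Camp, Ltf and Mmp9 the highest r was 0.941 (Aldh16a1), 0.827 (Gabrq) and 0.952 (Gapdhs).

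**Figure D3:**
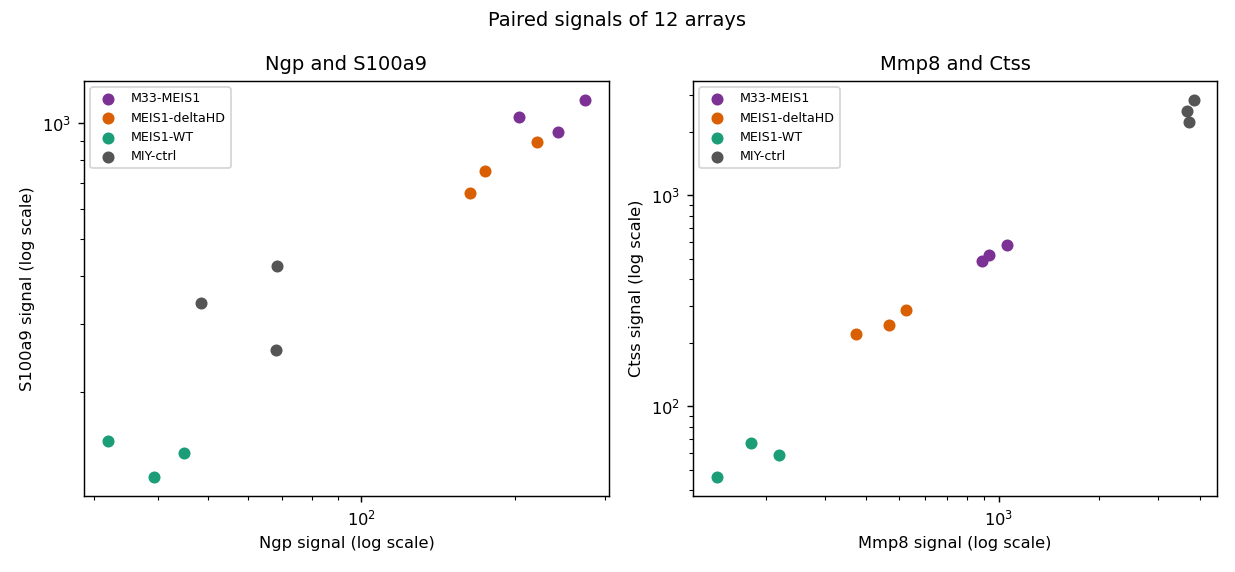
Signals of Ngp and S100a9 (left) and of Mmp8 and Ctss (right) on the 12 arrays, both axes on a log scale, with 1 point per array coloured by group. In the left panel M33-MEIS1 and MEIS1-deltaHD lie at the top with control between them and MEIS1-WT, and in the right panel control lies at the top and MEIS1-WT at the bottom.

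S100a9 read 1040, 947 and 1150 with M33-MEIS1, 749, 893 and 657 with MEIS1-deltaHD, and 120, 139 and 149 with MEIS1-WT, against 341, 257 and 424 in control. As for Ngp, the groups with the M33 form and without the homeodomain were above control and MEIS1-WT was below it.

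A list of 33 other proteins of the secondary and tertiary granules and their membranes, of which 22 were tested, moved mainly down against control. With M33-MEIS1 3 were higher and 11 lower (median -0.28), with MEIS1-deltaHD 3 higher and 13 lower (median -0.55) and with MEIS1-WT 1 higher and 15 lower (median -0.68). Of all features, 12.4% were higher and 18.3% lower than control with M33-MEIS1, 13.8% and 22.8% with MEIS1-deltaHD, and 13.4% and 19.5% with MEIS1-WT, and the medians of all features were -0.128, -0.17 and -0.125. The lower counts of the list are above these shares, whereas 3 of 22 higher is near them. Cybb, the membrane subunit of the phagocyte oxidase, averaged 304 with M33-MEIS1, 220 with MEIS1-deltaHD and 22.4 with MEIS1-WT, against 1170 in control, and fell by 4.93 with MEIS1-WT relative to control (adjusted p = 5.92e-19). The formyl peptide receptor Fpr2 (-2.82), the complement protein properdin (Cfp, -2.70) and the integrin chain Itgam (-2.59) also fell with MEIS1-WT. The protease inhibitor Slpi was the 1 that rose with MEIS1-WT, by 1.65 (adjusted p = 6.2e-11), and is named here after its values were seen, as is Pglyrp1. With M33-MEIS1 and MEIS1-deltaHD the 3 that rose were Anxa3 (0.75 and 0.70), an annexin of neutrophils, Pglyrp1 (0.70 and 0.34), a peptidoglycan-binding antimicrobial protein, and Slpi (0.37 and 0.43).

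Genes listed for the primary granules, which precede the secondary ones in development, moved in both directions against control. The list was broad and beside granule proteins held Ms4a3, Serpinb1a, Rab27a, Nkg7 and Plac8. Its counts are therefore not counts of granule proteins alone. Of 14 listed, 10 were tested. With M33-MEIS1 6 were higher and 2 lower (median 0.24), with MEIS1-deltaHD 4 higher and 2 lower (median 0.10) and with MEIS1-WT 1 higher and 4 lower (median -0.07). Set against the 12.4%, 13.8% and 13.4% of all features that were higher, the counts with M33-MEIS1 and MEIS1-deltaHD are above the share and that with MEIS1-WT is near it. Of all features 18.3%, 22.8% and 19.5% were lower. The 2 of 10 lower with M33-MEIS1 and with MEIS1-deltaHD are near their shares, and the 4 of 10 with MEIS1-WT are above theirs. The largest difference in the list was that of lysozyme Lyz2, also a monocyte and macrophage gene, at -1.99 with M33-MEIS1, -3.07 with MEIS1-deltaHD and -5.41 with MEIS1-WT, all passing. Neutrophil elastase (Elane) read 2040, 1790 and 1850 with M33-MEIS1, 2350, 2230 and 1940 with MEIS1-deltaHD, and 761, 785 and 726 with MEIS1-WT, against 800, 402 and 1020 in control. It rose by 1.43 with M33-MEIS1 and by 1.63 with MEIS1-deltaHD, and differed by 0.13 with MEIS1-WT (adjusted p = 0.627). Against MEIS1-WT, 8 of the 10 were higher and 0 lower with M33-MEIS1 and likewise with MEIS1-deltaHD. In these comparisons 4.12% and 2.84% of all features were higher and 2.37% and 2.42% lower.

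**Figure D4:**
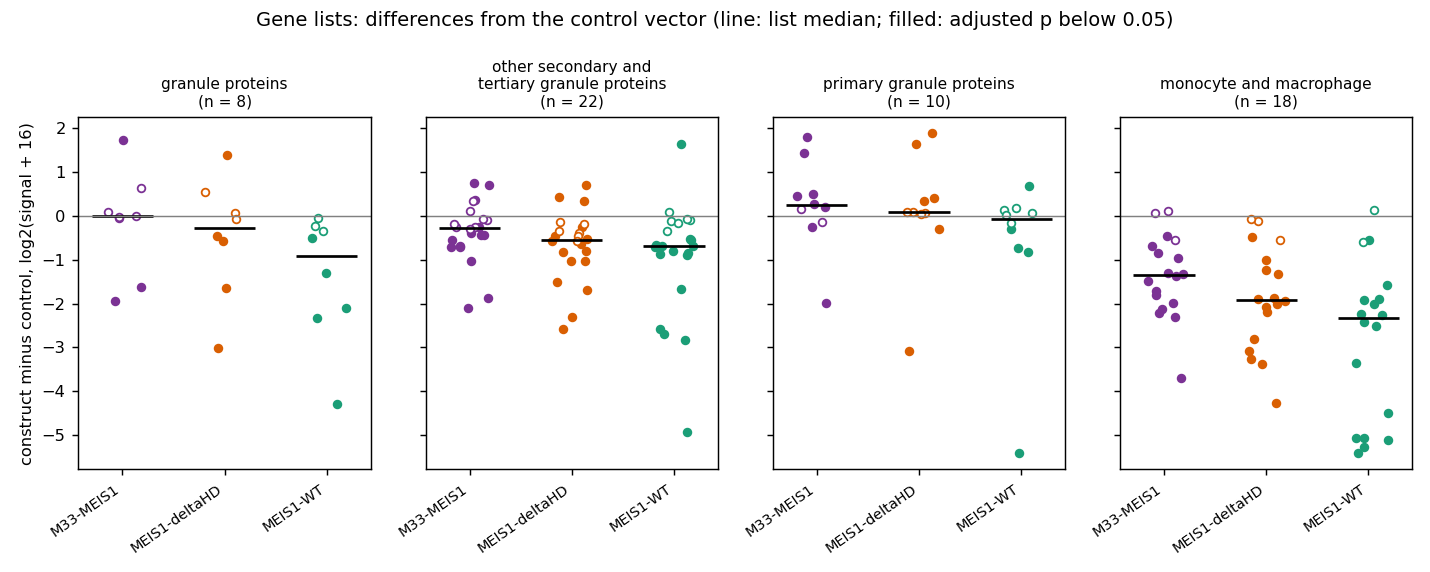
Difference from control in log2(signal + 16) (y axis) of each tested gene of 4 lists, for M33-MEIS1, MEIS1-deltaHD and MEIS1-WT (x axis); lines are list medians and filled points passed at an adjusted p below 0.05. The granule genes spread from -4.28 to 1.72 over the 3 comparisons, and the monocyte and macrophage genes lie mostly below 0 for every construct.

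Of 25 listed transcription factors 24 were measured, and Cebpe was not analysed here. The list holds regulators of the granulocyte programme and others, such as Irf8, Klf4, Egr1, Egr2, Gata1, Gata2, Junb and E2f1. Its counts are therefore not counts of granulocyte regulators alone. With M33-MEIS1 1 was higher and 11 lower than in control (median -0.23), with MEIS1-deltaHD 1 higher and 11 lower (median -0.29) and with MEIS1-WT 1 higher and 17 lower (median -0.49). The shares of all features that were lower were 18.3%, 22.8% and 19.5%, those higher 12.4%, 13.8% and 13.4%, and the medians of all features were -0.128, -0.17 and -0.125. Gfi1, a repressor needed for neutrophil differentiation, had differences of -0.45, -0.52 and -1.01 in the same order, all passing. Spi1 (PU.1), a factor for myeloid cells, averaged 453 ± 19.1 with M33-MEIS1, 457 ± 31.7 with MEIS1-deltaHD and 291 ± 21.1 with MEIS1-WT, against 539 ± 101 in control (SD, n = 3 each), and of the comparisons with control passed in that with MEIS1-WT (-0.84, adjusted p = 5.76e-07; adjusted p = 0.1 with M33-MEIS1 and 0.106 with MEIS1-deltaHD). Cebpa, which starts granulocyte commitment, changed little, and its difference of -0.21 with MEIS1-WT passed narrowly (adjusted p = 0.0408).

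Cebpb, Cebpd and Irf8, a factor that favours monocytes, were lower with MEIS1-WT than with the other constructs, whereas the C/EBP factor Cebpg was not. Egr1 went the other way. It read 115, 111 and 123 with M33-MEIS1, 158, 151 and 224 with MEIS1-deltaHD, and 448, 365 and 448 with MEIS1-WT. Of the 24 factors, 6 were higher and 1 lower with M33-MEIS1 than with MEIS1-WT. With MEIS1-deltaHD 6 were higher and 2 lower. Of all features, 4.12% and 2.84% were higher and 2.37% and 2.42% lower in these comparisons. Cebpg read 208, 210 and 207 with M33-MEIS1, 164, 142 and 176 with MEIS1-deltaHD, and 188, 179 and 210 with MEIS1-WT, against 632, 579 and 569 in control. It was lower than in control with each construct (-1.44, -1.79 and -1.55, all passing), and no difference between constructs passed. Cebpb read 714, 731 and 653 with M33-MEIS1, 685, 614 and 701 with MEIS1-deltaHD, and 427, 381 and 417 with MEIS1-WT, against 1200, 1330 and 1340 in control. Cebpd averaged 195 with M33-MEIS1, 182 with MEIS1-deltaHD and 72.8 with MEIS1-WT, against 149 in control, and was higher than with MEIS1-WT by 1.25 and 1.15 with M33-MEIS1 and MEIS1-deltaHD. Irf8 averaged 339 with M33-MEIS1, 264 with MEIS1-deltaHD and 63.8 with MEIS1-WT, against 294 in control, and was higher than with MEIS1-WT by 2.16 and 1.82.

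**Figure D5:**
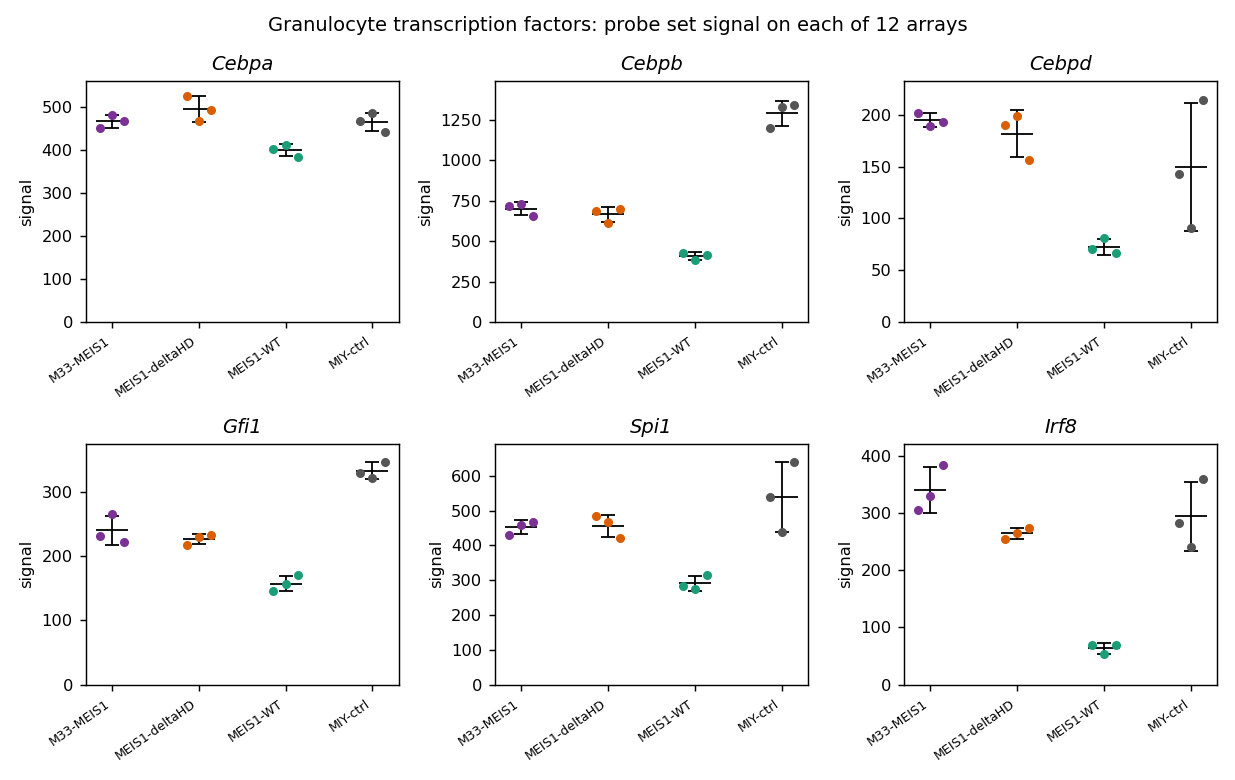
Signal (y axis, linear array intensity from 0) of 6 factors of granulocytes and monocytes on the 3 arrays of each group (x axis); points are arrays, the horizontal mark is the mean and bars are 1 SD. MEIS1-WT is the lowest group in all 6, and the control mean is the highest for Cebpb, Gfi1 and Spi1.

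Genes of the IL-6, STAT3 and acute phase response, of which Lcn2 and Hp are known members in liver and myeloid cells, were lower than in control in 9 of 14 with M33-MEIS1 (median -0.61), in 9 with MEIS1-deltaHD (median -0.87) and in 11 with MEIS1-WT (median -0.85), and 0 were higher. Of all features, 18.3%, 22.8% and 19.5% were lower. Saa3, an acute phase serum amyloid, had differences of -2.59, -2.96 and -3.27 in that order and the signalling inhibitor Socs3 of -0.94, -1.19 and -2.41, all passing. Among 12 other metalloproteinases tested, Mmp13, a collagenase related to Mmp8, had differences of -2.53, -3.08 and -3.06 and macrophage elastase Mmp12 of -0.87, -1.92 and -1.84, all passing. In total 2, 2 and 4 of the 12 were lower and 0 higher, where 18.3%, 22.8% and 19.5% of all features were lower, so the first 2 counts are no more than the share of all features. Of 14 receptors, inhibitors and binding partners of the granule proteins, 5, 6 and 6 were lower and 0, 0 and 1 higher, beside the same shares lower and 12.4%, 13.8% and 13.4% of all features higher, with Lrp1, a clearance receptor for proteinases, at -1.38, -1.97 and -2.31.

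Markers of other cell types moved with the groups. The summed signal of 18 monocyte and macrophage genes was 4370 to 4970 with M33-MEIS1, 2770 to 3030 with MEIS1-deltaHD and 782 to 966 with MEIS1-WT, against 14400 to 16900 in control. That is the group order of Mmp8, and 15, 15 and 16 of the 18 were lower than in control and 0 higher, where 18.3%, 22.8% and 19.5% of all features were lower. Ctss, the gene most like Mmp8, is one of them. The defining marker Csf1r, the receptor for the macrophage growth factor, read 618 to 656 with M33-MEIS1, 409 to 452 with MEIS1-deltaHD and 25.7 to 36.9 with MEIS1-WT, against 1520 to 1710 in control. C1qb and Apoe were dim in every group, with at most 32.3. The summed signal of 18 genes of late neutrophils was 5280 to 6460 with M33-MEIS1, 4330 to 4920 with MEIS1-deltaHD and 3400 to 3690 with MEIS1-WT, against 5250 to 5850 in control. Of the 18, 4, 3 and 1 were higher and 9, 9 and 9 lower than in control. Beside them, 12.4%, 13.8% and 13.4% of all features were higher and 18.3%, 22.8% and 19.5% lower. The defining markers of this list differed in direction. S100a8 read 1530 to 1800 with M33-MEIS1, 1150 to 1510 with MEIS1-deltaHD and 279 to 331 with MEIS1-WT, against 628 to 1300 in control. Csf3r read 152 to 162, 133 to 161 and 83.3 to 129 in that order, against 301 to 323 in control. Itgam also lay below control with every construct. The chemokine receptor Cxcr2 was dim, at 4.2 to 37.4, as was Fcnb, at 5.16 to 32.1. Ly6g was not analysed here. The summed signal of 12 mast cell and basophil genes was 5370 to 5960 with M33-MEIS1, 2830 to 3120 with MEIS1-deltaHD and 2700 to 2880 with MEIS1-WT, against 3930 to 5490 in control. Of the 12, 4, 2 and 2 were higher and 4, 9 and 8 lower than in control. Of all features, 12.4%, 13.8% and 13.4% were higher and 18.3%, 22.8% and 19.5% lower, so 2 of 12 higher is near the share. With M33-MEIS1 against MEIS1-WT, 9 of the 12 were higher and 2 lower, where 4.12% of all features were higher and 2.37% lower. The defining marker Cpa3, a mast cell protease, read 1870 to 2020 with M33-MEIS1, 893 to 1010 with MEIS1-deltaHD and 793 to 890 with MEIS1-WT, against 1300 to 2100 in control. Kit, another defining marker, went the other way between constructs. Kit read 245 to 267, 298 to 313 and 410 to 544 in that order, against 376 to 410 in control. The summed signal of 11 fibroblast genes, which would mark virus-producing cells, was 363 to 393, 318 to 429 and 405 to 484 with the constructs, against 571 to 676 in control. Of these, the collagen Col1a1 read 1.18 to 18.4 and Thy1 86.6 to 141 over the 12 arrays. Pdgfrb read 137 to 212 with the constructs and 283 to 365 in control. The part of these cell types in the granule gene differences was not tested.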

How the data were processed

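RNA of the 12 cultures was hybridised to a mouse whole-genome expression array with 45101 probe sets. Per the submitters' processing notes, GCOS 1.2 was used, and the deposited values are linear signal intensities; the 2% trimmed mean of each array is 100. Symbols came from the platform annotation, which gave 34945 probe sets 1 symbol, 932 several and 9160 none, with 64 controls left out.

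From these, log2(signal + 16) was computed. Probe sets above the 40th percentile of the array on at least 3 of 12 arrays were kept (31726), and the brightest stood for its gene, leaving 19990 features. limma 3.58.1 in R 4.3.3 fitted the 4 groups of 3 arrays together with an intensity trend, with 8 residual degrees of freedom, and the Benjamini-Hochberg adjustment ran over all features in each of 6 comparisons at 0.05. The code was tested on simulated data. An exact permutation test of 3 against 3 cannot go below p = 0.1, so none was used. With 3 arrays in each group, precision is limited by that number. limma also draws the variance of each gene toward a value estimated from all features, so SEs and p-values lean on other genes too. Without the intensity trend, the adjusted p of Mmp8 with MEIS1-WT against control was 1.32e-08 instead of 1.15e-18.

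The members and lists were chosen with earlier results of these data known. All members are named. Of each list, up to 4 passing genes with the largest difference in a comparison, and its first 4 genes, could be named, and for each member the 3 genes with the highest correlation. No pairing of arrays by replicate number was seen: the correlation of deviations between arrays of 1 number lay between -0.0375 and 0.0249, and 0 of 18 pairs exceeded 0.1. These correlations run over all features, many of them dim, so they cannot exclude a shared origin of arrays of 1 number. Alternatives were pseudocounts of 4 and 64, no filter, quantile normalization, median scaling, probe sets taken singly, no intensity trend, 2 groups only, the replicate number as a block and leaving out each array.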

Additional observations from a re-analysis of the deposited data

How the results depend on the processing

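Of 1008 recomputed gene differences (48 differences under 21 alternatives), 936 kept their direction and side of the threshold, 18 lost their call, 13 gained one and 41 changed sign. None of the 41 was a call. The causes were not tested. Calls of Lcn2 and Mmp8 in the comparisons with control and with MEIS1-WT held in all 21 alternatives.

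The count of higher granule genes with M33-MEIS1 against control was 2 with pseudocount 64, quantile normalization and median scaling, and 1 to 2 when leaving out an array. With MEIS1-deltaHD against control it was 2 with quantile normalization, median scaling and 2 groups only, and the lower count was 3 with quantile normalization and 2 with median scaling. With M33-MEIS1 against MEIS1-deltaHD it was 2 with 2 groups only and with the replicate block, and 1 to 2 when leaving out an array. The replicate block, under which Hp passed there (0.45, adjusted p = 0.0239), changed no other call of the granule genes. The lower count with MEIS1-WT against control was 4 with quantile normalization and with median scaling. Against MEIS1-WT, the higher count with MEIS1-deltaHD was 5 with pseudocount 64, no filter and no intensity trend. That with M33-MEIS1 was 5 with no intensity trend. Both counts against MEIS1-WT also fell on leaving out an array whose removal cost Camp its call.

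Sign changes were small. For Mmp9, M33-MEIS1 minus control was 0.15 with both quantile normalization and median scaling (-0.23 to 0.19 leaving out an array), MEIS1-deltaHD minus control 0.15 and 0.17 (-0.27 to 0.10), MEIS1-WT minus control 0.12 and 0.14 (-0.23 to 0.19), MEIS1-deltaHD minus MEIS1-WT 0.03 and 0.03 (-0.27 to 0.09; 0.00 with pseudocount 4), M33-MEIS1 minus MEIS1-deltaHD 0.00 and -0.02 (from -0.14 to 0.27), and M33-MEIS1 minus MEIS1-WT -0.23 to 0.23. For M33-MEIS1 minus control, Chi3l3 was 0.15 and 0.17 (-0.09 to 0.06), Hp was 0.18 with median scaling (-0.10 to 0.19) and Ltf -0.04 to 0.24. Ltf for MEIS1-deltaHD minus control was -0.11 to 0.21. For M33-MEIS1 minus MEIS1-deltaHD, Ltf was -0.02 and -0.03 (-0.11 to 0.21), Lcn2 -0.03 with median scaling and Camp -0.19 to 0.28. Camp, Ltf and Mmp9 lay near the dim end of the arrays, which limits what can be seen of them.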
